A study of Drosophila melanogaster with 12 samples.

Results

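Gene expression in the gut of nub1 flies was compared with that in wt gut across gene families other than those of immunity, the maltases and Notch signalling. The comparison used all 6 gut arrays among the 12 arrays of the series, 3 labelled nub1 gut and 3 labelled wild-type gut, and the other 6 arrays held carcass, the fly without head and gut. The 3 arrays of a group held RNA from independent pools of 20 female flies aged 7 to 12 days, which had been kept with males on cornmeal agar without treatment. Whether a gut array and a carcass array of a genotype share a pool is not stated. The nub1 strain also carries the marker alleles b1 and pr1 on the same chromosome, and no array of nub1 without them was run. The labels of the wt arrays name OregonR and w1118 together and the description of the series names OregonR alone, so the strain behind each wt array is not settled. A difference between the groups can therefore come from nub, b, pr or another part of the genetic background, and these cannot be told apart.

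The nub gene encodes a POU-domain transcription factor, a class of proteins that bind octamer motifs in DNA, and makes a long isoform, Nub-PB, and a shorter one, Nub-PD. The nub1 allele strongly lowers the transcript of Nub-PD and leaves Nub-PB. The fly midgut secretes proteases, lipases and glycosidases into a lumen lined by the peritrophic matrix, a sheet of chitin and mucins, and takes up lipids, sterols and metals, while its enterocytes also make cytochrome P450 enzymes and glutathione S-transferases that handle foreign compounds. The foregut and the hindgut, in contrast, are lined with chitin-based cuticle like that of the body wall.

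A probe set was tested when its MAS5 signal, the intensity that the Affymetrix software gives for it, reached 10 on each array of one genotype or of both. It was called changed at an adjusted p under 0.05 from limma and a difference of at least 2-fold on the log2(signal + 10) scale, and a gene is represented by its probe set with the highest mean gut signal. Of 8083 genes tested, 777 (9.61%) changed, 262 (3.24%) being higher and 515 (6.37%) lower in nub1 gut. Counted by probe set, 908 of 9782 (9.28%) changed, 308 (3.15%) being higher and 600 (6.13%) lower. Of the probe sets, 8603 were tested through both genotypes, 934 through wt gut only and 245 through nub1 gut only. The filter thus favoured falls, and the excess of falls is no independent measure of direction. The same limit holds for each family with members tested through wt gut alone. The median log2 fold change over the 8083 genes was −0.045. The signals of the 3 wt arrays and the 3 nub1 arrays did not overlap for 3318 genes, 41.0% of those tested, so a lack of overlap alone was common. Correlations of log2 signals ran from 0.957 to 0.986 between arrays of 1 genotype and from 0.892 to 0.925 between genotypes. The median signal of an array lay between 14.7 and 14.9 for wt and between 9.85 and 12.7 for nub1, where replicate 2 had the lowest. The mean level of 27 digestive protease genes, on the log2(signal + 10) scale, was 10.99 to 11.65 over the gut arrays and 6.11 to 7.09 over the carcass arrays. The peptide hormone gene AstC, a marker of enteroendocrine cells, had signals of 964.1 to 1027 in wt gut, 722.7 to 1164 in nub1 gut and 7.48 to 28.5 in carcass, so markers of the labelled tissue were present in both genotypes.

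The gut arrays also carried transcripts of the reproductive tract, and in unequal amounts. The eggshell genes, which encode chorion and vitelline membrane proteins made by the follicle cells of the ovary, had a mean level over 17 genes, on the log2(signal + 10) scale, of 4.25, 7.13 and 9.12 on wt gut replicates 1, 2 and 3. The same mean was 4.09, 8.82 and 5.61 on nub1 gut replicates 1, 2 and 3, and 10.61 to 11.01 on the carcass arrays, which include the ovaries. Replicate 1 of both genotypes was thus the lowest, and wt replicate 3 and nub1 replicate 2 the highest, with the genotypes overlapping fully. The number of eggshell genes with a signal of at least 10 was 8, 14 and 16 in wt gut and 4, 17 and 14 in nub1 gut. Cp15, a chorion protein gene, gave signals of 38.8, 1736 and 2192 in wt gut and 23.9, 4051 and 324.3 in nub1 gut. Cp36, another chorion gene, gave 10.9, 35.3 and 3400 in wt gut and 2.60, 3423 and 185.8 in nub1 gut. The pattern differed from gene to gene, since Cp16 gave 1.43, 3144 and 1434 in wt gut but 1.71, 264.0 and 13.7 in nub1 gut. Vm26Aa, which encodes a vitelline membrane protein, gave 39.4, 716.1 and 2664 in wt gut against 21.3, 1163 and 109.8 in nub1 gut. Of the 17 genes 8 passed the filter and none was called higher or lower.

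Germline genes varied less between the arrays. Their mean level over 20 genes was 6.13, 6.81 and 6.95 in wt gut and 6.82, 7.75 and 6.63 in nub1 gut, so that the highest array of each genotype was the one highest for eggshell genes. Of the 19 that passed the filter, AGO3 was called, an Argonaute gene of the piRNA pathway, with signals of 39.0, 41.9 and 36.6 in wt gut and 68.2, 201.9 and 63.8 in nub1 gut. Its log2 fold change was 1.12 (SE 0.304, adjusted p = 0.0136 from limma), and without nub1 gut replicate 2, the array with the most eggshell signal in its group, it was 0.63 and below the 2-fold minimum. The 17 cell cycle and DNA replication genes had mean levels of 7.03, 7.04 and 7.27 in wt gut and 7.09, 7.90 and 6.96 in nub1 gut, and none was called. The number of germline genes called higher rose from 1 to 4 without wt gut replicate 3 or nub1 gut replicate 3, to 3 without nub1 gut replicate 1 and to 2 without wt gut replicate 2, and fell to 0 without nub1 gut replicate 2. Without nub1 gut replicates 1 and 3, which leaves the array with the most eggshell signal of its group, 12 germline and 5 cell cycle genes were called higher. In RNA from whole tissue, fewer cells of a type and less RNA per cell cannot be told apart.

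Transcripts of the ejaculatory duct, a male organ, were present on 2 nub1 arrays although the flies were labelled female. Anp, which encodes the antibacterial peptide andropin of that duct, gave signals of 3.27, 10.5 and 4.21 in wt gut and 1056, 18.8 and 1692 in nub1 gut. Dup99B, a seminal peptide gene, gave 0.728, 3.41 and 4.84 in wt gut and 443.6, 9.77 and 780.7 in nub1 gut. Replicates 1 and 3 of nub1 gut were thus high for both genes and replicate 2 lay near the wt arrays. Ebp, an ejaculatory bulb protein gene, gave 7.53, 8.41 and 122.9 on the nub1 arrays and EbpII 4.49, 0.151 and 103.8, so that only replicate 3 was high for these. EbpIII was high on every gut array, with 4433, 4542 and 4398 in wt gut and 5568, 4209 and 5534 in nub1 gut. Without EbpIII, the mean level over 4 genes was 3.49, 3.97 and 3.83 in wt gut, 6.72, 4.17 and 8.56 in nub1 gut and 5.16 on nub1 carcass replicate 2. Anp was called higher in nub1 gut (log2 fold change 4.58, SE 1.3, adjusted p = 0.017 from limma), and the call was lost without nub1 gut replicate 1 (adjusted p = 0.066) or 3 (adjusted p = 0.0634). Genes of the male accessory gland and the testis did not accompany them. Of 17 accessory gland genes 1 passed the filter, Acp95EF, and SP, the sex peptide gene, stayed under 10 on all gut arrays. Of 24 testis genes 3 passed, and none was called.

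Of the 908 changed probe sets, 813 had the same call without wt gut replicate 3 and nub1 gut replicate 2, the arrays with the most eggshell signal, and 743 without nub1 gut replicates 1 and 3, those with ejaculatory duct signal. None had the opposite call in either case. Of the genes whose calls are given here, 15 lost them in the former fit, namely AGO3, Alp1, Alp10, Cpr67B, Cyp28d1, Faa, Jon44E, MFS1, nkd, Npc2d, Npc2f, pdm2, Pepck2, Tsf1 and VhaM9.7-a, with log2 fold changes of 0.59 to 1.45 in size. In the latter, 23 did, namely Anp, CAH8, Cyp18a1, Cyp4ac2, Cyp6d4, Dfd, FASN3, GstD1, GstD9, GstS1, GstT3, GstZ1, Jon44E, Lcp65Ag3, LManIII, LpR2, Mur18B, Npc2e, Npc2f, Obp44a, TwdlN, vkg and Yp3. In a fit on wt gut replicate 1 and nub1 gut replicates 1 and 3, the arrays with the least eggshell signal, 18 lost them, namely AGO3, Alp1, Alp10, CG17191, CG31091, Cyp28d1, Faa, FASN3, Jon44E, Lcp65Ag3, MFS1, Npc2d, Npc2e, Npc2f, Obp44a, Pepck2, Tsf1 and VhaM9.7-a. The second fit has 1 nub1 gut array and the third 1 wt gut array, which were assumed to vary like the other groups. The part of these organs in the other results was not tested further.

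**Figure D1:**
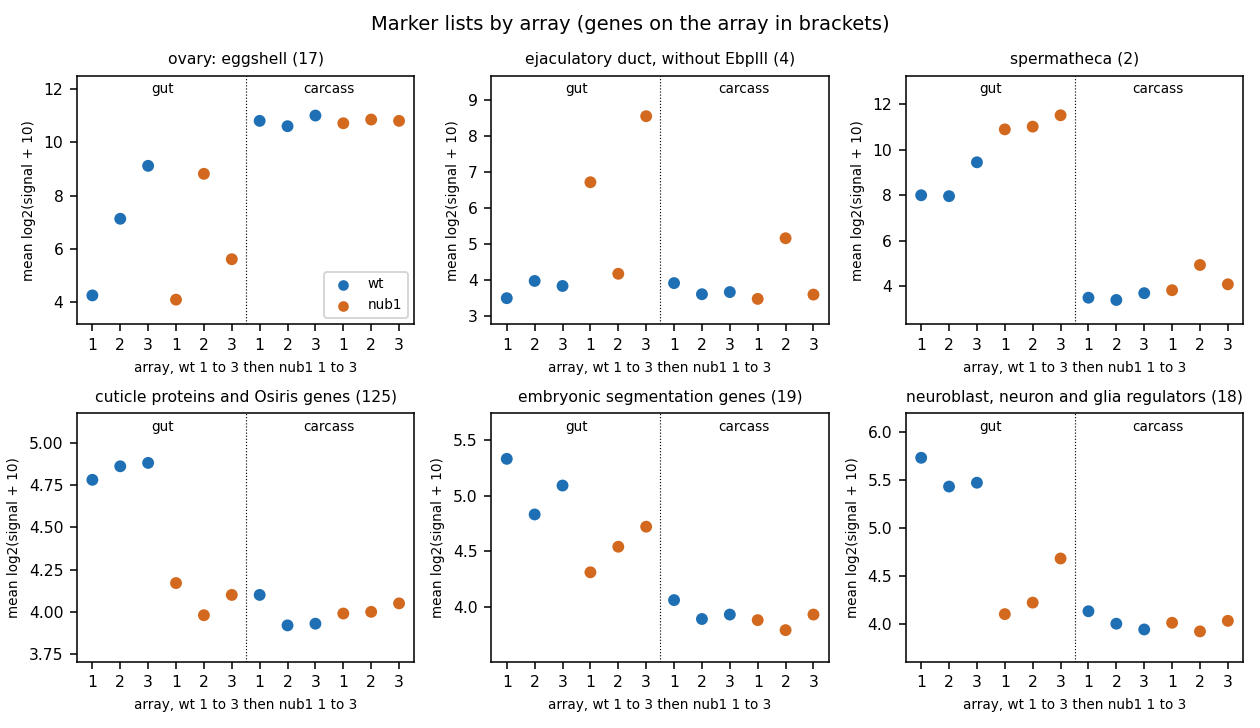
Mean level of 6 gene lists on each of the 12 arrays, as log2(signal + 10) averaged over the genes of the list, with 1 point per array, wt in blue and nub1 in orange, gut to the left and carcass to the right of the dotted line. Eggshell levels range from 4.09 to 9.12 over the gut arrays of both genotypes, ejaculatory duct genes stand out on nub1 gut replicates 1 and 3, and spermathecal, cuticle, segmentation and neuroblast levels of the gut arrays do not overlap between genotypes. The segmentation and neuroblast lists were written after their values had been seen.

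Genes of the spermatheca, the female organ that stores sperm, were higher in nub1 gut on all 3 arrays. Send1, which encodes a protease secreted by spermathecal cells, gave signals of 429.1, 476.8 and 508.2 in wt gut and 2939, 2071 and 3390 in nub1 gut. Send2, a related protease gene, gave 139.1, 118.1 and 938.6 in wt gut and 1228, 2057 and 2517 in nub1 gut. Neither gene overlapped between the genotypes, although wt gut replicate 3 was well above the other wt arrays for Send2. The log2 fold change was 2.52 (SE 0.23, adjusted p = 7.83e-06 from limma) for Send1 and 2.83 (SE 0.731, adjusted p = 0.0106) for Send2, the latter with an adjusted p of 0.0503 without wt gut replicate 2. Over both genes the mean level on the carcass arrays was 3.39 to 4.93, below that of every gut array.

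The changes in the gut families ran in both directions within most of them, as the plot of families by log2 fold change shows. Glutathione S-transferases and glycosidases held more rises than falls, and cuticle, peritrophic matrix and sterol transport genes held more falls than rises. However, 32 of the 51 tested cuticle genes and 10 of the 26 tested peritrophic matrix and chitin genes were tested through wt gut alone. Each of these had a nub1 array under 10, so the filter favoured falls among them. Ribosomal, respiratory chain and proteasome genes held no call. For comparison with the family counts, 3.24% of all tested genes were higher and 6.37% lower.

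**Figure D2:**
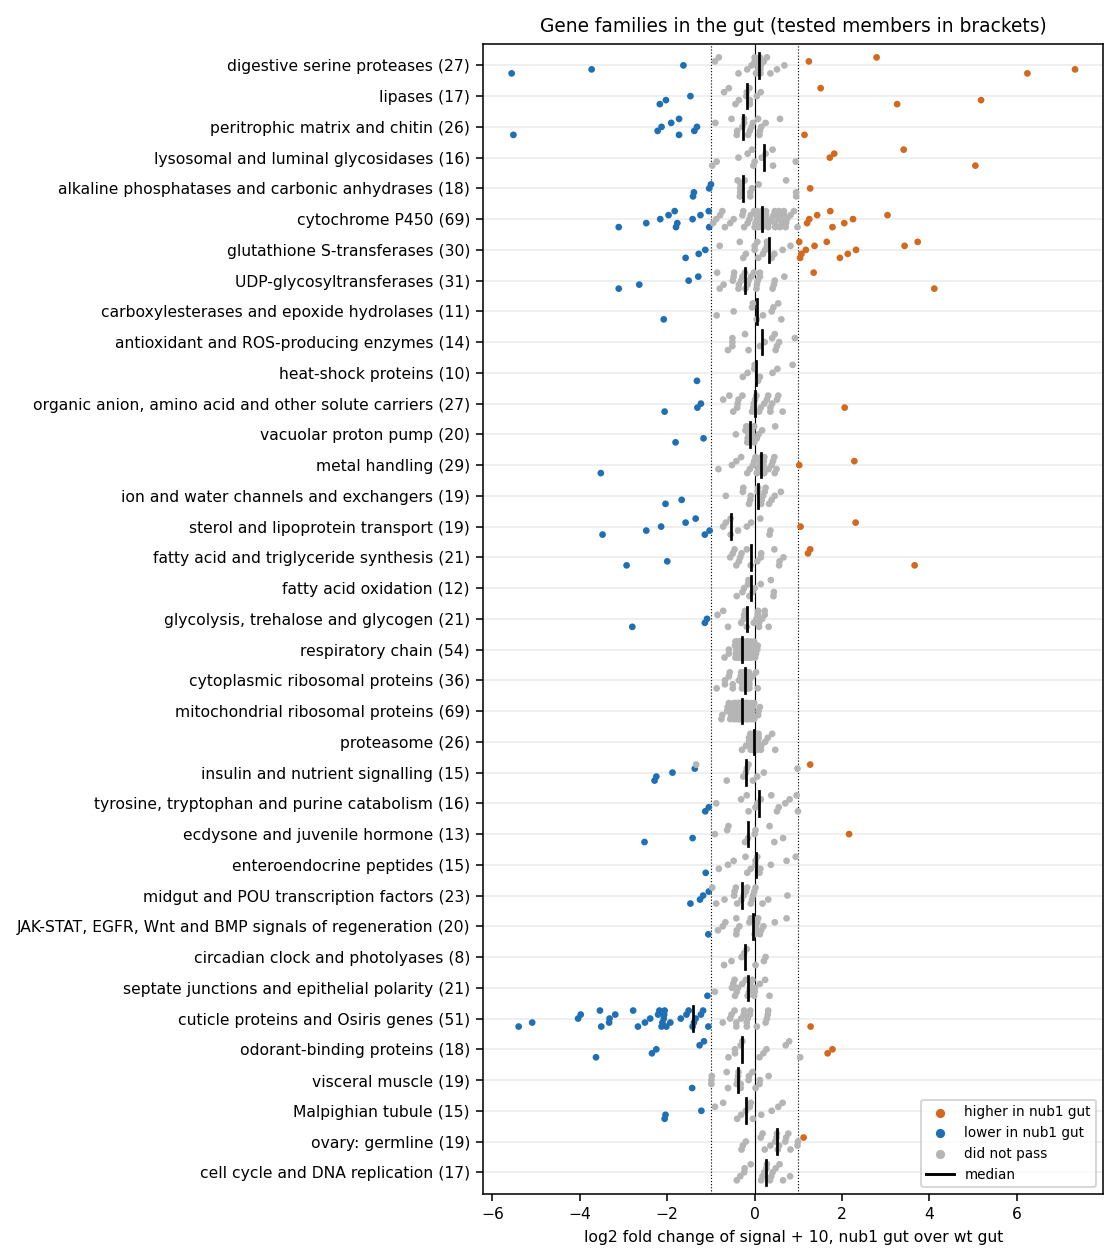
Log2 fold change of signal + 10, nub1 gut over wt gut, for every tested gene of the families described here, with 1 point per gene, orange where higher, blue where lower and grey where not called, and a black bar at the family median. Dotted lines mark 2-fold, and the cuticle family spreads to the left with a median of −1.42 while ribosomal and mitochondrial families lie close together just below 0.

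Among the digestive serine proteases, 27 of 27 genes on the array passed the filter, of which 4 were higher and 3 lower, with a median log2 fold change of 0.11. Jon66Ci, a Jonah protease gene, gave 3187, 3215 and 2854 in wt gut and 291.2, 152.3 and 250.9 in nub1 gut. The trypsin gene iotaTry gave 1242, 1299 and 1208 in wt gut and 458.6, 293.8 and 463.4 in nub1 gut. Ser6, which encodes a chymotrypsin-like protease, went the other way, with 428.2, 472.2 and 424.4 in wt gut and 3396, 2485 and 3587 in nub1 gut. None of these 3 genes overlapped between the genotypes, and their log2 fold changes were −3.73 (SE 0.201, adjusted p = 1.35e-07 from limma), −1.63 (SE 0.22, adjusted p = 0.000151) and 2.79 (SE 0.186, adjusted p = 6.47e-07). The other calls were Jon65Aii, with a log2 fold change of −5.56, Ser12 with 7.33, and CG1304, a gene under 10 on every wt array that was at least 100.7-fold higher in nub1 gut. Jon44E was called at 1.24 (adjusted p = 0.0441), and this call was lost on leaving out any gut array but nub1 replicate 2, with an adjusted p of 0.128 without nub1 replicate 1. The other 20 proteases were not called, among them alphaTry, with signals of 9041, 9867 and 6674 in wt gut and 10420, 8012 and 11120 in nub1 gut, and Jon25Biii, with a log2 fold change of 0.00. Over 14 Jonah proteases the median was 0.06 and over 9 trypsins 0.11.

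Lipase genes changed in both directions as well. Of 30 on the array 17 passed the filter, 3 being higher and 3 lower, with a median of −0.18. Lip3 gave 11.0, 9.10 and 16.7 in wt gut and 940.0, 696.2 and 744.2 in nub1 gut (log2 fold change 5.18, SE 0.255, adjusted p = 8.43e-08 from limma). CG8093, another gene of the family, gave 283.1, 405.4 and 261.1 in wt gut and 3691, 2358 and 3331 in nub1 gut. CG6283 had a log2 fold change of 1.51. Lip4 fell from 259.7, 254.6 and 234.2 in wt gut to 35.8, 49.2 and 61.0 in nub1 gut (log2 fold change −2.17, SE 0.174, adjusted p = 2.73e-06). The genotypes did not overlap for any of these genes. CG31091 (−2.03) and CG17191 (−1.47) were called lower, and neither call held on wt gut replicate 1 and nub1 gut replicates 1 and 3, with the single wt array assumed to vary like the other groups. The gastric lipase gene mag was not called, with 4971, 4464 and 3882 in wt gut and 4446, 3000 and 4440 in nub1 gut.

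Of 16 glycosidase genes on the array, all of which passed the filter, 4 were higher and none lower, with a median of 0.21. Amyrel, an amylase-related gene, gave 17.6, 18.5 and 21.7 in wt gut and 1359, 716.6 and 895.5 in nub1 gut (log2 fold change 5.05, SE 0.274, adjusted p = 1.4e-07 from limma). tobi, an alpha-glucosidase gene named as a target of brain insulin, gave 316.1, 351.2 and 241.3 in wt gut and 3030, 3227 and 3586 in nub1 gut (log2 fold change 3.41, SE 0.431, adjusted p = 9.35e-05). Both genes lay far above the wt arrays on every nub1 array. Gal, a beta-galactosidase gene, had a log2 fold change of 1.82 and LManIII, a lysosomal alpha-mannosidase gene, one of 1.72. LManIII was the only called gene of 6 LMan genes, and without nub1 gut replicates 1 and 3 its log2 fold change was 0.98. LManII, at −0.97, missed the 2-fold minimum, with signals of 3020, 3150 and 2745 in wt gut and 1576, 1124 and 1931 in nub1 gut.

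**Figure D3:**
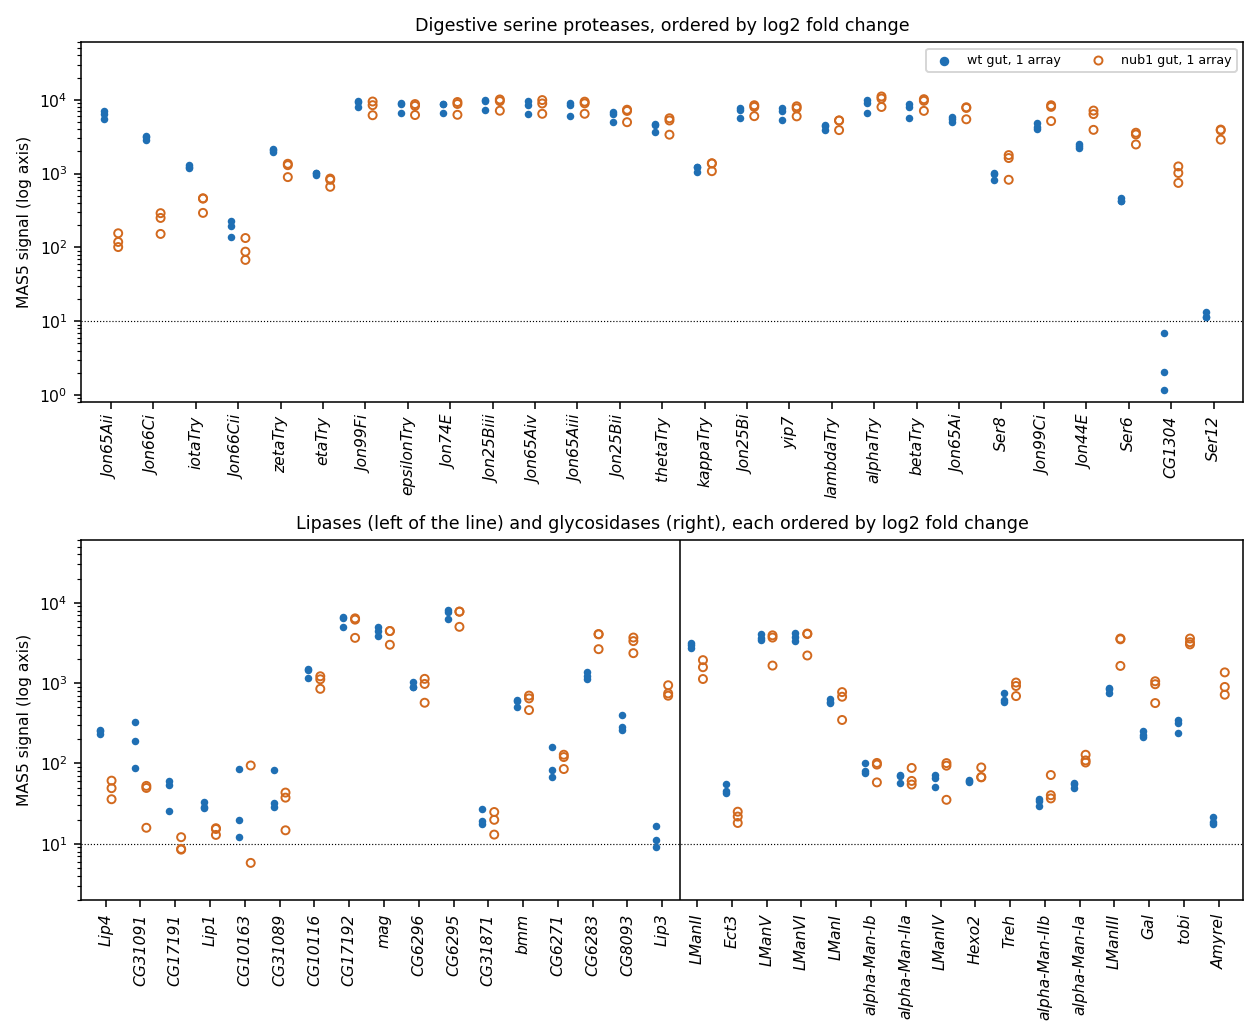
MAS5 signal on a log axis for each tested digestive serine protease (top) and each tested lipase and glycosidase (bottom), with 1 point per array, filled blue for wt gut and open orange for nub1 gut, genes ordered by log2 fold change and a dotted line at the minimum signal of 10. Most proteases overlap between genotypes, whereas Jon65Aii, Jon66Ci, Lip4, Ser6, CG1304, Ser12, Lip3, tobi and Amyrel do not.

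In the peritrophic matrix and chitin family, 26 of 42 genes passed the filter, 10 of them through wt gut alone, and 8 were called lower and 1 higher. A gene that passed only through wt gut had a nub1 array under 10, below every wt array, so the filter favoured falls and these counts are no independent measure of direction. Over all 42 genes the mean level on the log2(signal + 10) scale was 6.03, 6.16 and 6.14 in wt gut, 5.66, 5.58 and 5.80 in nub1 gut and 4.67 to 4.97 in carcass, the gut arrays being apart by genotype. Cht9, a gene of the chitinase family, gave 1450, 1160 and 1263 in wt gut and 23.9, 9.19 and 24.8 in nub1 gut (log2 fold change −5.52, SE 0.241, adjusted p = 3.97e-08 from limma). Gasp, which encodes a chitin-binding protein of cuticle and trachea, gave 343.9, 474.5 and 330.1 in wt gut and 129.0, 56.7 and 109.1 in nub1 gut. Neither overlapped. The related chitin-binding gene obst-A gave 56.2, 76.9 and 54.9 against 3.74, 5.94 and 10.4, a log2 fold change of −2.13. The chitin synthase gene kkv, Cht6, Cht7 and Muc91C were under 10 on every nub1 array, and were at least 3.02-fold, 3.29-fold, 4.29-fold and 3.46-fold lower. Mur18B, a mucin-related gene, rose from 1728, 1501 and 1505 to 4053, 2967 and 3521 (log2 fold change 1.14, SE 0.129, adjusted p = 3.95e-05), and was at 0.97 after quantile normalization. Peritrophin-15a, a component of the peritrophic matrix of the midgut, did not pass the test, with 5628, 6021 and 5194 in wt gut and 5748, 3821 and 5834 in nub1 gut. Peritrophin-A was also called lower, a call lost with a pseudocount of 32 (−0.77). Of the members that fell, kkv, Gasp and obst-A are known mainly from cuticle and trachea.

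Alkaline phosphatases were lower where they changed. Of 12 Alp genes on the array 11 passed the filter, 4 fell and none rose, with a median of −0.33. Of the 18 tested phosphatase and carbonic anhydrase genes together, 4 were tested through wt gut alone. Alp4 gave 2141, 1931 and 2012 in wt gut and 801.8, 679.6 and 797.5 in nub1 gut (log2 fold change −1.41, SE 0.0891, adjusted p = 4.48e-07 from limma), and Alp2 had a log2 fold change of −1.39. Alp10 (−1.04) and Alp1 (−1.0) lay at the 2-fold minimum and lost their calls when single arrays were left out, at −0.78 for Alp10 without nub1 gut replicate 2 and −0.96 without wt gut replicate 1, and at −0.92 for Alp1 without wt gut replicate 3 and −0.97 without nub1 gut replicate 2. Of 13 carbonic anhydrase genes 7 passed and 1 changed, CAH8, with 12.4, 10.2 and 17.6 in wt gut and 33.6, 33.9 and 80.9 in nub1 gut, and without nub1 gut replicate 3 its log2 fold change was 0.92.

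Among the enzymes that handle foreign compounds, the glutathione S-transferases couple glutathione to reactive compounds. Of 34 genes on the array 30 passed the filter, all through both genotypes, 11 being higher and 3 lower with a median of 0.34. The Delta class, whose 11 genes on the array are all on chromosome arm 3R, held 7 of the rises and no fall among 10 tested genes, with a median of 1.51. GstD8 gave 20.1, 25.5 and 25.0 in wt gut and 552.8, 315.1 and 466.7 in nub1 gut (log2 fold change 3.73, SE 0.193, adjusted p = 1.03e-07 from limma). GstD2 gave 46.6, 41.4 and 55.2 in wt gut and 723.4, 465.3 and 678.0 in nub1 gut (log2 fold change 3.43, SE 0.232, adjusted p = 6.78e-07). All nub1 arrays were above all wt arrays for both. GstD4, GstD10, GstD7, GstD9 and GstD1 had log2 fold changes of 2.32, 1.95, 1.65, 1.37 and 1.04. GstD1, whose product is known for detoxifying DDT, had signals of 2475, 2854 and 2776 in wt gut and 6161, 4666 and 6016 in nub1 gut, and without wt gut replicate 1, nub1 gut replicate 1 or nub1 gut replicate 3 its log2 fold change was 0.97 to 0.99.

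The other glutathione S-transferase classes were mixed. Of 11 tested Epsilon genes 2 were higher, GstE5 (185.8, 164.6 and 215.8 in wt gut, 943.5, 736.1 and 891.0 in nub1 gut, log2 fold change 2.13) and GstE1 (1.07), and GstE11 was lower (−1.28). GstT3 (1.17) and GstS1 (1.02) rose, and GstO3 fell from 1774, 1927 and 1918 to 648.1, 520.0 and 697.9 (log2 fold change −1.58, SE 0.119, adjusted p = 1.59e-06 from limma). GstZ1, which acts in tyrosine breakdown, fell by 1.13 on the log2 scale, as did Faa, the next enzyme gene of that route, by 1.05. Calls near the 2-fold minimum were lost with single arrays left out, at 0.80 for GstE1 without wt gut replicate 1, at 0.91 to 0.96 for GstS1 without wt gut replicate 3 or nub1 gut replicate 1 or 3, and at −0.93 for Faa without wt gut replicate 3 or nub1 gut replicate 2. GstE1 and GstS1 also lost them after quantile normalization (0.96 and 0.89). Without nub1 gut replicates 1 and 3, 7 of the family's rises were called. The 14 tested antioxidant genes held no call, with Gtpx at −0.61, and of 10 tested heat-shock genes Hsc70-2 was called lower, with signals of 16.8 to 24.6 in wt gut and 0.920 to 5.12 in nub1 gut.

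Cytochrome P450 genes changed in both directions in similar numbers. Of 81 on the array 69 passed the filter, 8 being higher and 11 lower, with a median of 0.17. Cyp9b2 gave 734.7, 1081 and 809.2 in wt gut and 4837, 3204 and 4621 in nub1 gut (log2 fold change 2.25, SE 0.211, adjusted p = 9.4e-06 from limma). Cyp4s3 gave 13.7, 17.6 and 22.8 in wt gut and 249.0, 176.4 and 237.3 in nub1 gut (log2 fold change 3.04, SE 0.16, adjusted p = 1.15e-07). Cyp6a14 fell from 204.5, 215.8 and 202.3 to 28.5, 21.01 and 39.5 (log2 fold change −2.48, SE 0.174, adjusted p = 9.21e-07). None of the 3 overlapped between the genotypes. Within the Cyp6a genes 3 of 12 tested were higher, Cyp6a16 (2.05), Cyp6a8 (1.73) and Cyp6a18 (1.43), and 4 were lower, Cyp6a14, Cyp6a21 (−1.83), Cyp6a9 (−1.77) and Cyp6a2 (−1.05). Within the Cyp4 genes 3 of 20 tested were higher, Cyp4s3, Cyp4d21 (1.78) and Cyp4ac2 (1.20), and 3 lower, Cyp4p1 (−3.11), Cyp4ad1 (−1.97) and Cyp4p2, which was under 10 on every nub1 array and at least 4.72-fold lower. Cyp6d4 (1.25) was higher, and Cyp6w1 (−1.80), Cyp6t1 (−1.42) and Cyp28d1 (−1.04) were lower. Cyp18a1, which inactivates the moulting hormone, gave 75.2, 76.4 and 79.5 in wt gut and 14.3, 65.6 and 17.5 in nub1 gut, so that nub1 replicate 2 lay close to wt. It was called lower, with a log2 fold change of −0.93 without nub1 gut replicate 1. Cyp4ac2 was at 0.94 without wt gut replicate 1 and Cyp28d1 at −0.98 without wt gut replicate 1 and −0.80 without nub1 gut replicate 2, and after quantile normalization Cyp28d1 (−0.97) and Cyp6a2 (−0.94) were not called. The 8 tested genes of the mitochondrial P450 class held no call, each represented by a probe set of that gene alone. Among them is Cyp12d1-d, which the paper lists with a large change in carcass and gut. Cyp12d1-p had no probe set of its own, and probe sets of several genes were not counted here. The reason for the difference was not tested.

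Among the UDP-glycosyltransferases, which attach sugars to small molecules, 31 of 35 passed the filter, 2 were higher and 4 lower, with a median of −0.21. Of the 31, 5 were tested through wt gut alone. Ugt37D1 fell from 684.4, 724.5 and 671.3 to 88.0, 55.3 and 74.9 (log2 fold change −3.11, SE 0.156, adjusted p = 8.73e-08 from limma). Ugt35D1 gave 102.1, 78.9 and 72.4 in wt gut and was under 10 on every nub1 array, at least 8.45-fold lower. Both groups stood apart for these genes. Ugt36A1 rose (1.35), Ugt35C1 rose (4.11), and Ugt37A3 (−1.51) and Ugt303A1 (−1.29) fell. Of 11 tested carboxylesterase and epoxide hydrolase genes, alpha-Est2 fell, with 97.0, 80.1 and 85.7 in wt gut and 6.54, 11.9 and 24.0 in nub1 gut.

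**Figure D4:**
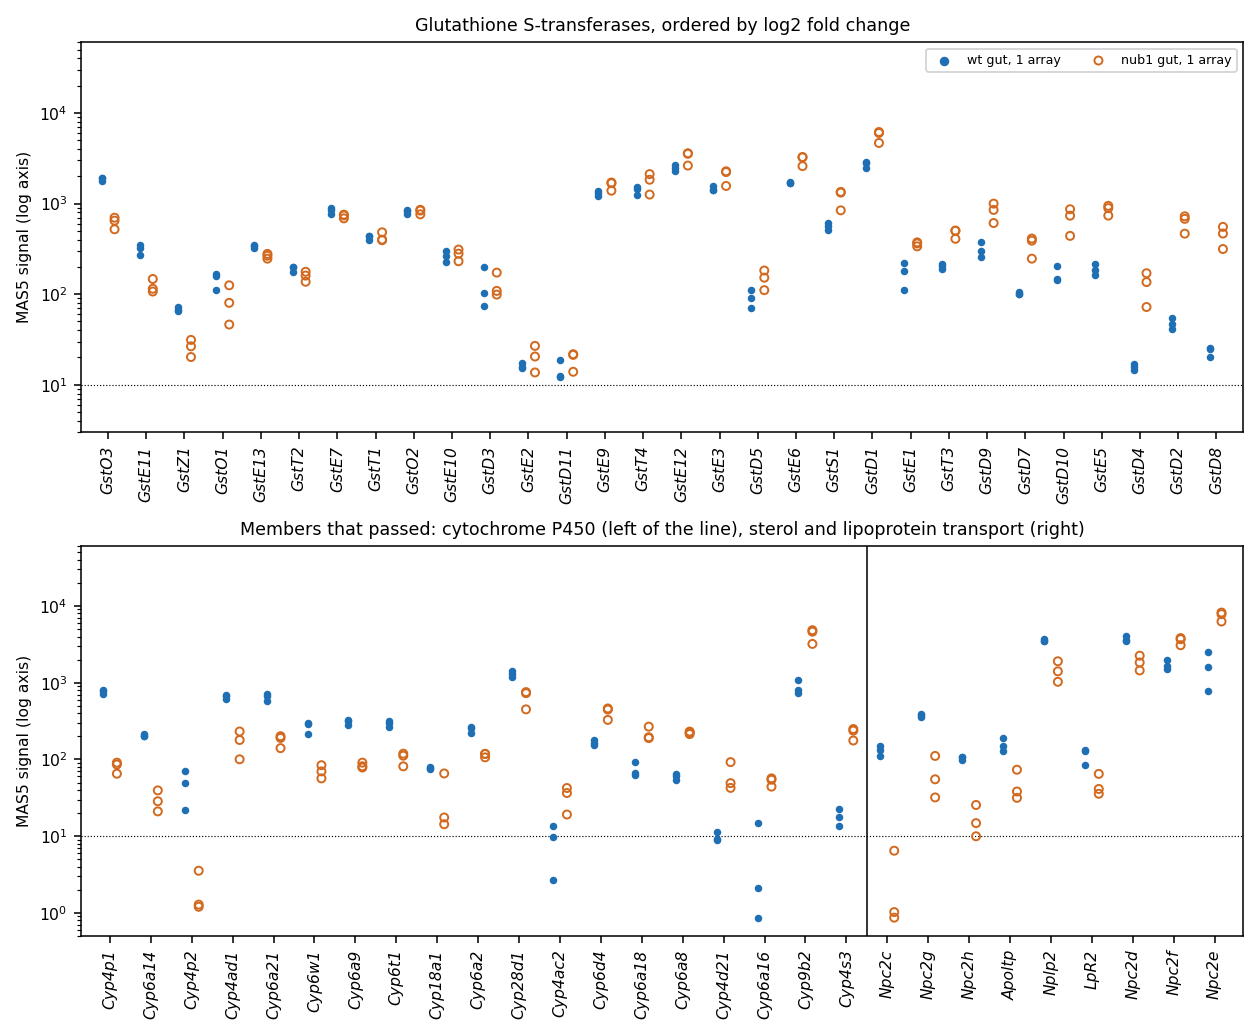
MAS5 signal on a log axis for each tested glutathione S-transferase (top) and for the called genes of the cytochrome P450 and of the sterol and lipoprotein transport families (bottom), with 1 point per array, filled blue for wt gut and open orange for nub1 gut, and a dotted line at the minimum signal of 10. GstD genes gather at the right of the upper panel, where nub1 signals are higher, and P450 genes lie on both sides of the change in direction.

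Genes that carry sterols and lipoprotein lipids were mostly lower where they changed. Of 19 tested genes among 20 on the array, 7 fell and 2 rose, with a median of −0.55. The Npc2 genes, which encode secreted sterol-binding proteins, gave calls in both directions. Npc2c gave 150.1, 110.2 and 131.9 in wt gut and 1.02, 0.866 and 6.46 in nub1 gut, at least 13.1-fold lower. Npc2g fell from 382.6, 354.3 and 390.3 to 31.96, 55.0 and 111.0 (log2 fold change −2.48, SE 0.297, adjusted p = 6.04e-05 from limma), and Npc2h fell by 2.14 on the log2 scale. Npc2e rose from 2539, 1614 and 784.9 to 7830, 6276 and 8212 (log2 fold change 2.31, SE 0.607, adjusted p = 0.0114). No array of 1 genotype overlapped the other for these 4 genes, but the wt arrays of Npc2e differed among themselves by more than those of the others. The call of Npc2e was lost without nub1 gut replicates 1 and 3 (adjusted p = 0.0924), and those of Npc2d (−1.03) and Npc2f (1.05) were lost when single arrays were left out. The adjusted p of Npc2d was 0.0501 to 0.0769 without wt gut replicate 1 or 2 or nub1 gut replicate 2 or 3, and that of Npc2f 0.0584 to 0.061 without wt gut replicate 2 or 3 or nub1 gut replicate 1. Apoltp, a lipid transfer particle gene, fell by 1.58, LpR2, a lipophorin receptor gene, by 1.14 and Nplp2 by 1.35. LpR2 was at −0.99 without nub1 gut replicate 1 and at −0.72 (adjusted p = 0.0758) without nub1 gut replicates 1 and 3, and was not called there. The apolipoprotein gene apolpp was not called, with 949.5, 953.3 and 780.6 in wt gut and 295.3, 588.4 and 1001 in nub1 gut.

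Fat storage genes moved with them in part. Lsd-1, which encodes a perilipin of lipid droplets, fell from 831.3, 783.0 and 734.3 to 87.2, 74.7 and 126.2 (log2 fold change −2.93, SE 0.14, adjusted p = 7.35e-08 from limma). Dgat2, an enzyme gene of triglyceride synthesis, fell from 158.6, 130.5 and 179.5 to 35.3, 22.4 and 37.8 (log2 fold change −2.0, SE 0.205, adjusted p = 1.9e-05). Neither overlapped between genotypes. In the same list of 21 tested genes Desat2, a fatty acid desaturase gene, rose (3.66), as did FASN3 (1.22) and Agpat1 (1.27), and the list median was −0.09. The main fatty acid synthase gene FASN1 had a log2 fold change of −0.56, under the minimum, and the 12 tested genes of fatty acid oxidation held no call.

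Sugar metabolism held 3 falls (14.3%) and no rise among 21 tested genes, 1 of which was tested through wt gut alone. UGP, which makes UDP-glucose for glycogen, was under 10 on every nub1 array and at least 9.70-fold lower. fbp, a gluconeogenesis gene, gave 583.1, 577.3 and 619.4 in wt gut and 267.3, 234.3 and 290.0 in nub1 gut (log2 fold change −1.14, SE 0.128, adjusted p = 3.8e-05 from limma), and Pepck2, another, had a log2 fold change of −1.09 and of −0.88 without nub1 gut replicate 2. Glycolytic genes did not pass the test, for example Tpi with 2336, 2495 and 2640 in wt gut and 2850, 2457 and 2593 in nub1 gut. The 54 tested respiratory chain genes had a median of −0.30, the 36 cytoplasmic ribosomal genes −0.22, the 69 mitochondrial ribosomal genes −0.29 and the 26 proteasome genes −0.01, each without a call, where the median of all genes was −0.045.

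In insulin and nutrient signalling 4 of 15 tested genes (26.7%) fell and 1 (6.67%) rose, against 6.37% and 3.24% of all genes. Of the 15, 2 were tested through wt gut alone, so the filter favoured falls. sug, a zinc finger gene that responds to dietary sugar, gave 555.6, 410.8 and 345.2 in wt gut and 95.6, 57.7 and 98.8 in nub1 gut (log2 fold change −2.25, SE 0.194, adjusted p = 4.79e-06 from limma). daw, which encodes the activin-like ligand dawdle, gave 160.0, 151.6 and 128.0 in wt gut and 25.3, 16.96 and 24.0 in nub1 gut (log2 fold change −2.29). The groups were well apart for both. AkhR, the receptor of adipokinetic hormone, was at least 5.11-fold lower, and REPTOR-BP, a transcription factor gene downstream of the TOR kinase, fell by 1.37 on the log2 scale. ImpL2, whose secreted product binds insulin-like peptides, rose from 302.4, 249.8 and 298.6 to 666.5, 639.6 and 791.9 (log2 fold change 1.27, SE 0.106, adjusted p = 3.78e-06). The kinase genes S6k, Pdk1 and Akt had log2 fold changes of 0.06, −0.26 and −0.20 and were not called. Several of the called genes were also lower in nub1 carcass, with log2 fold changes there of −1.5 for daw, −1.27 for sug and −2.42 for AkhR, measured on other arrays.

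Of 13 tested genes of the ecdysone and juvenile hormone pathways, Hr96, a nuclear receptor gene of the response to lipids and foreign compounds, rose from 106.9, 87.3 and 91.0 to 424.2, 442.9 and 510.1 (log2 fold change 2.16, SE 0.116, adjusted p = 1.29e-07 from limma). ImpE2, an ecdysone-inducible gene, was under 10 on every nub1 array and at least 7.68-fold lower. Hr39, another nuclear receptor gene, fell by 1.42, but its other tested probe sets were not called and reached up to 0.93. Of 15 tested enteroendocrine genes NPF fell, from 298.6, 315.9 and 205.2 to 141.1, 84.6 and 137.2 (log2 fold change −1.12, SE 0.19, adjusted p = 0.000792), and it was at −0.90 without nub1 gut replicate 2. CCHa2, a nutrient-responsive peptide gene, had a log2 fold change of 0.94, under the minimum.

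Transport genes held calls in both directions. Over all genes tested, 3.24% were higher and 6.37% lower. These shares were 3.7% and 11.1% for solute carriers and 6.9% and 3.45% for metal handling genes. For the proton pump they were 0% and 10%, and for channels 0% and 10.5%. The 5 tested sugar transporters held no call. Of 27 tested solute carriers Balat rose, from 7.25, 12.4 and 4.66 to 69.3, 51.6 and 74.0 (log2 fold change 2.06, SE 0.206, adjusted p = 1.6e-05 from limma), and Oatp58Db (−2.06), MFS1 (−1.31) and NAAT1 (−1.23) fell, MFS1 being at −0.94 without nub1 gut replicate 2. Zip102B, a zinc transporter gene on chromosome 4, fell from 205.4, 192.2 and 186.6 to 15.1, 7.44 and 2.95 (log2 fold change −3.52, SE 0.195, adjusted p = 1.71e-07), and Zip42C.1, another, rose from 21.8, 5.79 and 8.05 to 120.4, 73.9 and 84.5 (log2 fold change 2.28). Neither overlapped. The ferritin genes Fer1HCH and Fer2LCH and the metallothionein gene MtnA had log2 fold changes of 0.21, 0.22 and 0.05 and were not called. Tsf1, which encodes transferrin, was called at 1.02, a call lost after quantile normalization (0.90), without wt gut replicate 1 (0.96) and without nub1 gut replicate 2 (0.82), and not made for its other probe set (0.69). Among 20 tested genes of the vacuolar proton pump VhaAC45RP (−1.81) and VhaM9.7-a (−1.17, and −0.81 without nub1 gut replicate 2) fell, while the core subunit gene Vha16-1 had a log2 fold change of 0.09. Of 19 tested channel genes Irk3, a potassium channel, fell from 286.5, 240.1 and 233.8 to 48.2, 44.6 and 72.3, and bib fell by 1.67.

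Irk3 and Oatp58Db are also markers of the Malpighian tubule, which joins the gut and can remain on a dissected gut. In the list of that organ 3 of 15 tested genes fell, these and tsh (−1.22), and none rose. The mean level of the list was 7.72, 7.54 and 7.62 in wt gut and 7.31, 6.97 and 7.33 in nub1 gut, without overlap. For visceral muscle the mean level was 7.96, 7.81 and 7.78 in wt gut and 7.72, 7.14 and 7.49 in nub1 gut, also without overlap, and 1 of 19 genes was called, the collagen gene vkg (log2 fold change −1.43, SE 0.19, adjusted p = 0.000137 from limma), which was at −0.95 without nub1 gut replicates 1 and 3. The levels of both lists were lowest on nub1 gut replicate 2, the array with the lowest median signal, and the part of tissue amounts in the other changes was not tested. Fat body markers overlapped, with mean levels of 8.12, 8.32 and 8.19 in wt gut and 7.84, 8.10 and 8.34 in nub1 gut. The yolk protein gene Yp3 was called lower at −1.20, lost with the gut arrays fitted alone (adjusted p = 0.0531) and without nub1 gut replicate 1 (−0.73), and fit, a satiety peptide gene, rose from 56.1, 118.4 and 88.98 to 390.5, 271.1 and 259.9. None of 7 tested haemocyte genes was called.

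Cuticle genes formed the family with the most falls. The list joined structural cuticle proteins of the CPR class, Tweedle proteins, and the Osiris proteins, membrane proteins of cells that secrete cuticle. Of its 125 genes on the array 51 passed the filter, 32 of them through wt gut alone and 1 through nub1 gut alone. Of all 125, 31 were called lower and 1 higher. A gene that passed only through wt gut had a nub1 array under 10, below every wt array. The filter thus favoured falls, and these counts are no independent measure of direction. Over all 125 genes, passed or not, the number with a signal of at least 10 was 66, 64 and 68 in wt gut, 32, 26 and 27 in nub1 gut and 18 to 27 in carcass. The mean level was 4.78, 4.86 and 4.88 in wt gut and 4.17, 3.98 and 4.10 in nub1 gut, against 3.92 to 4.10 in carcass. The nub1 gut arrays thus lay within or just above the range of the carcass arrays, and the 3 wt gut arrays stood above both. Single genes differed more between the wt gut arrays than this mean did, among them Osi6 and Lcp65Ag3.

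The Osiris and Tweedle genes had the widest differences. Osi15 gave 422.7, 726.9 and 266.9 in wt gut and 0.341, 0.669 and 0.736 in nub1 gut, at least 47.2-fold lower. Osi6 gave 1330, 825.3 and 37.9 in wt gut and 2.08, 0.698 and 0.449 in nub1 gut, at least 73.1-fold lower, with wt replicate 3 far below the other wt arrays. Osi20 gave 169.5, 363.6 and 152.4 in wt gut and 10.2, 1.26 and 2.29 in nub1 gut (log2 fold change −3.98, SE 0.308, adjusted p = 1.99e-06 from limma). In all 3 the lowest wt array was above the highest nub1 array. Of 24 Osiris genes, 23 of them on chromosome arm 3R, 9 passed the filter and 8 fell, and 11 were under 10 on every gut array. Of the 8 that fell, 6 were under 10 on every carcass array as well. Osi19 was called in opposite directions, with 114.8, 188.5 and 84.5 in wt gut, 2.53, 2.27 and 5.33 in nub1 gut, and a log2 fold change of −3.32 in gut and 1.55 in carcass.

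Of 24 Tweedle genes 13 passed and 11 fell. TwdlM gave 193.6, 239.1 and 294.2 in wt gut and 2.997, 2.64 and 11.2 in nub1 gut (log2 fold change −4.04, SE 0.227, adjusted p = 1.99e-07 from limma). TwdlF gave 153.1, 216.6 and 81.2 in wt gut and 4.43, 3.34 and 1.14 in nub1 gut. TwdlG and TwdlD had fitted log2 fold changes of −3.33 and −3.19, and 9 of the 11 were under 10 on every carcass array. Of the 77 other cuticle protein genes 29 passed, 12 fell and 1 rose. Cpr65Ea gave 86.9, 216.0 and 191.2 in wt gut and 7.52, 1.02 and 5.52 in nub1 gut, and Cpr64Ab gave 73.0, 145.2 and 116.6 against 18.5, 16.7 and 15.3. Lcp65Ag3 and TwdlN rested largely on wt gut replicate 3, at 437.0 of 13.6, 34.2 and 437.0 for the former and 181.2 of 15.6, 20.7 and 181.2 for the latter. With the gut arrays fitted alone their adjusted p was 0.0942 and 0.0526, and for Lcp65Ag3 it was 0.0684 without nub1 gut replicate 1. The rise was that of Cpr62Ba, from 13.2, 12.4 and 11.7 to 41.0, 39.6 and 54.5 (log2 fold change 1.28, SE 0.187, adjusted p = 0.000269). Not all cuticle genes of the wt gut were lower, as Cpr65Au had mean signals of 561.1 in wt gut and 704.1 in nub1 gut and Cpr51A 293.7 and 249.4, neither being called. Cpr67B fell from 639.5, 488.1 and 604.4 to 294.9, 218.0 and 302.8 (−1.06), and this call was lost after quantile normalization (−0.94), without wt gut replicate 1 (−0.99) and without nub1 gut replicate 2 (−0.92).

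**Figure D5:**
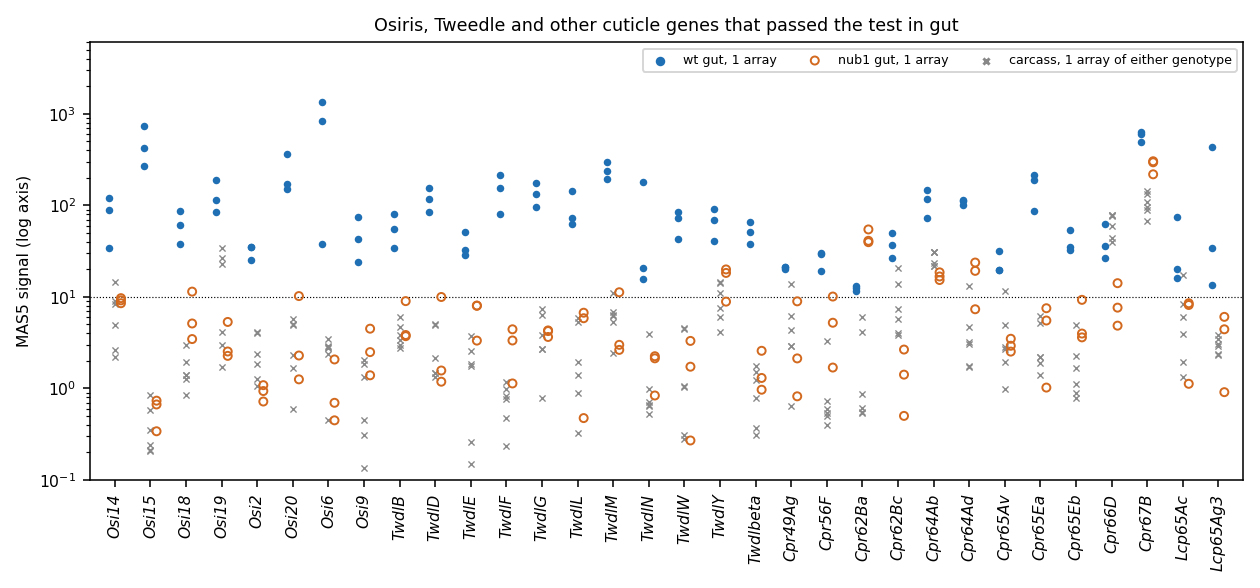
MAS5 signal on a log axis for each called Osiris, Tweedle and other cuticle gene, with 1 point per array, filled blue for wt gut, open orange for nub1 gut and grey crosses for the 6 carcass arrays of both genotypes, and a dotted line at the minimum signal of 10. Most nub1 gut points lie below the line and the wt gut points above it. Cpr62Ba, which rose, and Cpr64Ab and Cpr67B have all gut points above the line. Of the called genes, 6 Osiris, 9 Tweedle and 5 other cuticle genes are under 10 on every carcass array.

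Genes of embryonic patterning and of the early nervous system were lower in the same direction, in lists written after their values had been seen and therefore given as levels without a test. The mean level of 19 segmentation and germ layer genes was 5.33, 4.83 and 5.09 in wt gut, 4.31, 4.54 and 4.72 in nub1 gut and 3.79 to 4.06 in carcass. That of 18 regulators of neuroblasts, neurons and glia was 5.73, 5.43 and 5.47 in wt gut, 4.10, 4.22 and 4.68 in nub1 gut and 3.92 to 4.13 in carcass. Here wt gut replicate 1, the array with the least eggshell signal of its group, was the highest of the 3, and nub1 gut replicate 3 the highest of its group. gcm, the switch gene of glial fate, gave 49.6, 26.1 and 35.1 in wt gut and 0.689, 0.919 and 3.80 in nub1 gut. The neuronal RNA-binding protein gene fne gave 72.5, 86.4 and 65.8 in wt gut and 1.73, 2.83 and 13.4 in nub1 gut, and elav, another, gave 131.9, 81.5 and 87.8 against 25.9, 16.6 and 28.6. Other members did not share this, since odd gave 201.2, 175.1 and 152.3 in wt gut and 203.0, 118.7 and 190.1 in nub1 gut, hh gave 77.3, 78.1 and 99.6 against 94.4, 90.4 and 111.4, and insc gave 65.3, 69.9 and 65.8 against 79.9, 87.1 and 69.6. hb, a gap gene, was higher in nub1 gut without overlap, with 57.4, 51.5 and 80.0 in wt gut, 90.7, 159.8 and 98.2 in nub1 gut and 278.4 to 371.6 in carcass. Genes of terminal neurons, counted in a separate list, had mean levels of 4.32 to 4.49 in wt gut and 3.77 to 4.10 in nub1 gut. These levels did not overlap, and those of carcass were 4.07 to 4.33. Of 10 such genes on the array 4 passed the filter, 3 of them through wt gut alone, and 1 was called lower. Signals of nSyb were 2.83 to 16.5 in wt gut and 2.56 to 4.80 in nub1 gut.

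Genes of the apical matrix were lower in part, in lists that were likewise written after their values had been seen and carry no test. The chitin synthase gene kkv is both in the second of these lists and in the peritrophic matrix family. The mean level of 10 zona pellucida domain genes was 5.84, 5.63 and 5.30 in wt gut and 4.74, 4.45 and 5.03 in nub1 gut, and that of 13 genes of chitin synthesis and cuticle modification was 5.21, 5.55 and 5.48 against 4.29, 4.08 and 4.35. neo gave 91.8, 74.9 and 52.9 in wt gut and 9.83, 7.58 and 18.95 in nub1 gut, and the chitin deacetylase gene verm 57.5, 92.8 and 57.0 against 11.4, 1.70 and 9.27. In contrast pio, of the same domain class, gave 270.5, 216.6 and 222.0 in wt gut and 225.0, 151.0 and 244.8 in nub1 gut, overlapping.

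Single genes of like annotation stood among the largest falls of the gut. rib, which encodes a BTB-domain factor of tube formation in the embryo, gave 601.7, 320.2 and 389.7 in wt gut and 0.916, 9.43 and 61.1 in nub1 gut (log2 fold change −4.13, SE 0.525, adjusted p = 9.71e-05 from limma). Ama, which encodes the immunoglobulin-domain protein Amalgam, gave 886.0, 465.0 and 532.1 in wt gut and 11.8, 43.8 and 52.9 in nub1 gut (log2 fold change −3.87, SE 0.377, adjusted p = 1.3e-05). nur gave 756.8, 1109 and 722.3 in wt gut and 5.81, 7.98 and 36.1 in nub1 gut (log2 fold change −5.18). Within nub1 gut, replicate 3 was the highest for all 3 genes, and no nub1 array reached a wt array.

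Of the listed transcription factors of the midgut and the POU class, 4 of 23 tested genes fell and none rose. Of the 23, 4 were tested through wt gut alone, so the filter favoured falls. nub itself had a log2 fold change of 0.75, under the minimum, from a probe set not assigned to 1 isoform. pdm2, its neighbour and closest relative, fell from 80.5, 52.3 and 65.6 to 26.2, 20.6 and 33.7 (log2 fold change −1.05, SE 0.211, adjusted p = 0.00245 from limma), but was below the 2-fold minimum without wt gut replicate 1 (−0.91) or nub1 gut replicate 2 (−0.92). emc, which encodes an inhibitor of proneural factors, fell from 699.5, 655.3 and 694.8 to 296.1, 267.9 and 328.4 (log2 fold change −1.18, SE 0.0867, adjusted p = 1.42e-06), and sna fell by 1.47. The groups did not overlap for these 3 genes. The GATA factor gene grn was at least 1.92-fold lower, with a fitted log2 fold change of −0.98 after quantile normalization. Of 7 Hox-complex genes 3 passed the filter, and Antp fell, with log2 fold changes of −1.17 and −1.26 for its tested probe sets. Dfd, under 10 on every nub1 array, was at least 1.74-fold lower, a call lost after quantile normalization (−0.83), without wt gut replicate 1 (−0.96) and without nub1 gut replicate 1 (−0.98). cad, the caudal gene of the posterior gut, was not called, with a log2 fold change of 0.31. Of 20 tested genes of the signals that drive regeneration nkd fell (−1.06, but −0.92 without wt gut replicate 1 and −0.99 without nub1 gut replicate 1), and Stat92E, puc and spi had log2 fold changes of 0.46, 0.73 and −0.73 without a call. Of 21 tested junction genes sinu fell (−1.08, and −0.97 after quantile normalization), while the smooth septate junction genes Ssk, Tsp2A and mesh were at −0.16, 0.01 and −0.01. None of the 8 clock and photolyase genes was called.

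Odorant-binding protein genes, which encode small secreted carriers, changed in both directions. Of 47 on the array 18 passed the filter, 5 fell and 2 rose. Obp99a fell from 1413, 1196 and 1225 to 36.5, 87 and 238.1 (log2 fold change −3.63, SE 0.433, adjusted p = 5.9e-05 from limma). Obp99c fell from 498.1, 453.2 and 484.4 to 133.7, 204.7 and 264.5. For both, nub1 gut replicate 3 was the closest to wt and there was no overlap. Obp69a was at least 7.06-fold lower and Obp83g fell by 2.35, and Obp57b (1.67) and Obp83cd (1.78) rose. The call of Obp44a (−1.16) was lost with the gut arrays alone (adjusted p = 0.105) and without wt gut replicate 2 or 3 or nub1 gut replicate 1 or 3 (adjusted p = 0.0746 to 0.104).

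Of the 777 changed genes 610 were in none of the lists. Among the largest rises of named probe sets were CG15533, listed by RefSeq under the synonym aSMase for acid sphingomyelinase, with 159.5, 174.1 and 149.1 in wt gut and 3000, 2021 and 2865 in nub1 gut (log2 fold change 3.93, SE 0.401, adjusted p = 1.82e-05 from limma), and CG30371 with 15.9, 26.3 and 103.1 against 566.5, 512.9 and 692.5 (log2 fold change 3.65). CG31468 was at least 16.4-fold higher, with 149.3, 172.4 and 169.0 in nub1 gut. LysX, a lysozyme gene, fell from 388.4, 607.3 and 487.3 to 33.2, 19.5 and 35.2 (log2 fold change −3.68, SE 0.447, adjusted p = 6.76e-05). The genotypes were apart for all 4. For CG42335 2 probe sets gave opposite calls, at 4.01 and −3.11, and its change is therefore uncertain. Called genes were spread over the chromosomes, with 4.01% of 1448 tested genes higher and 6.35% lower on arm 2L, which carries nub, b and pr, against 3.46% and 7.04% on 2R, 2.52% and 7.30% on 3L, 3.43% and 5.93% on 3R and 2.79% and 5.19% on the X chromosome.

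The gut calls were set beside the carcass of the same genotypes, measured on separate arrays that the test took as independent. Of the 308 probe sets that were higher in nub1 gut 233 were tested in carcass, 97 of which were also called higher and none lower. Of the 600 that were lower 329 were tested in carcass, 91 of which were also called lower and 3 higher. The share of all probe sets called in carcass was not counted, so these numbers are no measure of agreement between tissues. The difference between the effects in the tissues passed the test for 658 of the 9782 probe sets tested in gut (6.73%), among them 123 of the 308 rises and 347 of the 600 falls. This test also took in probe sets too dim to be tested in carcass, where low signal limits the size of the carcass effect. Among the detoxification genes Cyp4p1 and GstE5 were called the same way in carcass, with log2 fold changes there of −3.99 and 1.69, whereas those of Cyp4s3 and GstD8 in carcass were −0.36 and 0.52. That of the glycosidase gene Amyrel was 0.45 in carcass, where its signal did not pass the filter. Mur18B was called higher in both tissues, at 1.14 in gut and 2.12 in carcass.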

How the data were processed

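For each Affymetrix Drosophila array the authors deposited linear MAS5 intensity values, which they computed in Expression Console and scaled to one target. After this scaling the mean without the extreme probe sets was 98.9 to 99.5 on every array. The sources used here give no software version. The deposited table was not filtered, the study's own filter on genes near background was not applied here and no detection call was used, so signals near 10 were close to background and limited what could be said of genes at that level.

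Of 18952 probe sets 183 controls were left out. Platform annotation supplied the gene names and RefSeq their present symbols, so that 13646 probe sets had 1 gene, 402 several and 4721 none, and 11981 genes were named. The probe set of b was not named and is not reported. Agpat1, Ama, Antp, Hr39, ImpL2, Peritrophin-A, Ugt37D1, daw, fbp and pr are represented by probe sets whose type can match more than 1 transcript.

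A single limma model (version 3.58.1, R 4.3.3) of log2(signal + 10) covered all 12 arrays in their 4 groups, with an intensity trend in the variance and with 8 residual plus 3.83 prior degrees of freedom. Its contrasts were nub1 against wt within each tissue and the difference of these effects. Testing required a signal of 10 on every array of one genotype or of both, and p-values were adjusted by Benjamini-Hochberg over all 9782 probe sets tested. Thresholds were an adjusted p under 0.05 and a fold of 2. SE values are from limma, and p-values measure the spread between pools of flies. An exact permutation test of 3 against 3 arrays cannot go below p = 0.1, so none was used. Where a group was under 10 on all 3 arrays, the fold is a lower bound of the means against 10, the fold change as fitted then depending on the pseudocount. The pipeline was tested on simulated arrays. Python 3.11.15, numpy 2.4.6 and pandas 2.3.3 handled the tables.

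The text names the 15 largest rises and 15 largest falls without overlap, in each list up to 8 changed genes and up to 4 with the highest mean signal, the genes of the genotype and the markers, though not every one is printed. The members, lists and this rule were chosen with earlier results of these data known. The lists of segmentation genes, neuroblast regulators, zona pellucida proteins and cuticle modification were written after the values had been seen. No DNA sequence was used. Other pseudocounts, filters, normalizations, variance trends, sets of arrays and tests were also run. The methods of the paper name t-tests between groups without their scale.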

Additional observations from a re-analysis of the deposited data

Results flagged for a closer look

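The effect of the genotype in gut was set against that in carcass, with a test of the difference itself in limma, and 658 probe sets passed it. Probe sets too dim to be tested in carcass were included in this count. Among the named genes that were called in both tissues, 13 passed, and for 3 of them the calls were in opposite directions. Osi19, an Osiris gene of cuticle-secreting cells, was lower in nub1 gut and higher in nub1 carcass, with a gut minus carcass difference of −4.86 on the log2 scale (adjusted p = 3.76e-06 from limma). CG14963, with log2 fold changes of −1.75 in gut and 1.14 in carcass, differed by −2.89, and CG2961, with −1.55 and 1.14, by −2.69. The latter pair was named for this difference after its values were seen.

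The other 10 genes kept their direction between the tissues, with unequal changes. The fall was larger in gut for CG42807 (difference −4.63), for the chitinase-family gene Cht9 (−4.32), for CG11893 (−3.41), for the glycosyltransferase gene Ugt37D1 (−1.94) and for the perilipin gene Lsd-1 (−1.93). The rise was larger in gut for the maltase gene Mal-A7 (2.94), for Ugt35C1 (1.61), for GstD2 (1.29) and for Cyp9b2 (1.16), and larger in carcass for the desaturase gene Desat2 (−1.5, adjusted p = 0.0322 from limma). Groups of 3 arrays were not searched for single deviating arrays.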

How the results depend on the processing

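No changed probe set was called in the opposite direction under any of the alternatives run, and neither was a named gene. Of 144 named genes called, 70 had the same call under every alternative that tested them. The other 74 lost it under at least 1, with 54 or fewer lost under any single one. A gene too dim for the stricter minimum signal of 20 was not tested there and not counted as lost. With that minimum, 818 of the 908 changed probe sets kept their call. Of 152 named genes without a call, 19 gained one under at least 1 alternative. With a pseudocount of 32 the changed probe sets numbered 549 instead of 908, 226 higher and 323 lower, and the difference between the tissues passed for 400. With a pseudocount of 1, 383 were higher and 804 lower. The methods' t-test, run on the linear signals and adjusted by Benjamini-Hochberg, gave 539 at the same thresholds, 180 higher and 359 lower, with 7 cuticle genes lower and 5 glutathione S-transferases higher, and at an unadjusted p under 0.05 it gave 1156. Without nub1 gut replicates 1 and 3, those with ejaculatory duct signal, 469 probe sets were higher, 752 lower, 1032 passed the tissue difference and 7 glutathione S-transferases were higher, with 1 nub1 gut array left whose spread was assumed to be that of the other groups. Quantile normalization gave 382 higher and 546 lower, raising the share of rises from 33.9% to 41.2%, and that share was also 41.2% with a pseudocount of 32.

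Leaving out each gut array in turn gave 872 to 971 changed probe sets, 302 to 342 higher, 570 to 655 lower, 607 to 756 passing the tissue difference, 30 to 31 cuticle genes lower and 9 to 11 glutathione S-transferases higher. Deviations of same-numbered arrays of the genotypes had correlations of 0.272, −0.044 and −0.349. The highest, 0.456, was between wt gut replicate 3 and nub1 gut replicate 2, the arrays with the most eggshell signal of their groups. Since uneven eggshell signal enters these correlations, they cannot settle whether the numbers pair the pools. With the replicate number as a block the gut arrays gave 904 changed probe sets, 311 higher and 593 lower, 900 of them among the 908. A fit on wt gut replicate 1 and nub1 gut replicates 1 and 3, added after seeing the data because they have the least eggshell signal and with 1 wt array left, gave 387 higher and 662 lower. The cause of these shifts was not tested.

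Low signals limit the falls most, since 157 of 600 lower probe sets were under 10 on every nub1 array and 25 of 308 higher ones on every wt array. The median signal was lower on the nub1 arrays. The strain of the wt arrays and the alleles b1 and pr1 cannot be told apart from nub1.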
